A study of Mus musculus with 14 samples.

Results

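In the livers of male Apoe-deficient mice, 6 introns, in Klhl15, Spata2l, Zmym6, Vps37a, Srrm1 and Hc, were listed as retained to a different extent with and without erythrodiol. They are all 6 entries for intron retention among 16 splicing events of all types that the authors' filtered comparison holds, beside 4 skipped exons, 3 pairs of mutually exclusive exons, 3 alternative 3′ sites and 0 alternative 5′ sites. The entries were chosen by the authors' test on the very counts described here, so the differences in retention between the groups are given as values, with no test. Introns that did not enter that list were not analysed here, so no values can be given for introns just outside it.

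The mice were of the C57BL/6 strain by the labels, C57BL/6J by the methods, and received a Western diet alone in the control group, or the same diet with erythrodiol, a triterpene of the olive, at 10 mg/kg. Both groups therefore share the lack of apolipoprotein E, which all their cells lack, and the Western diet. The labels give an age of 8 weeks and 8 weeks of diet, while the methods of the study give a longer time on the diet. Each group was sequenced as 7 libraries of poly-A RNA, each from a pool of livers of a few mice, with 34856340 to 55244294 clean reads in control libraries and 47669656 to 48058606 in erythrodiol libraries.

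An intron is retained when it stays in an mRNA that has otherwise been processed. The spliceosome recognises the 5′ end of an intron, nearly always GT, and its 3′ end, AG. A transcript that keeps an intron may stay in the nucleus, may be degraded by nonsense-mediated decay if translation meets a stop codon within the intron, or may give another protein. In poly-A RNA, an unspliced precursor and a stable retained form cannot be told apart by such reads. The program rMATS counts reads that support the retained form and reads that join both exons, and the share of the first among both is called the retained share here. It was not corrected for the greater length over which a retained intron can be read, so shares are compared between groups and not between introns.

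The introns differed in size and in place within the gene. Positions are those of the mouse build GRCm38, and transcripts those of GENCODE M21. The intron of Klhl15, which encodes a substrate adaptor of the CUL3 ubiquitin ligase, spans chrX:94253127-94253939 on the plus strand and has 813 bases. It is intron 3 of the 4-exon coding transcript Klhl15-202, and the coding transcript Klhl15-201 retains it. That of Spata2l, a relative of the adaptor gene Spata2, spans chr8:123235822-123236149 on the minus strand, has 328 bases and lies in the 5′ untranslated leader, just before the start codon. Transcripts Spata2l-202 and Spata2l-203 retain it, and 0 annotated transcripts splice exactly these ends.

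The intron of Zmym6, which encodes a zinc finger protein of the MYM type, spans chr4:127077601-127078407 on the plus strand, has 807 bases and is intron 1 of the 15 exons of Zmym6-201, before the start codon. Zmym6-206, a transcript annotated without a coding sequence, retains it. The intron of Srrm1, which encodes a serine- and arginine-rich coactivator of splicing, spans chr4:135344670-135346315 on the minus strand and has 1646 bases. In GENCODE, 5 coding transcripts of Srrm1 splice a longer intron of 2065 bases with the same 3′ end, and 2 transcripts of the retained-intron class, Srrm1-207 and Srrm1-212, hold the stretch. The exon on the 5′ side of the listed intron lies within that longer intron. Reads that splice the longer intron are therefore not among the spliced counts, and the retained share of Srrm1 does not give the share of its mRNA that keeps an intron.

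Vps37a encodes a subunit of ESCRT-I, a complex that sorts ubiquitinated membrane proteins. Its intron spans chr8:40541094-40543809 on the plus strand, has 2716 bases and is intron 9 of the 12 exons of Vps37a-201. Hc encodes complement component C5, a plasma protein made by hepatocytes. Its intron spans chr2:34991271-34991599 on the minus strand, has 329 bases and is intron 34 of the 41 exons of Hc-201. None of the annotated transcripts of Vps37a or Hc held the whole intron, while a new transcript deposited by the authors did so for each of both genes, and likewise for Klhl15, Spata2l and Srrm1. Among 223282 distinct introns of protein-coding transcripts, with a median of 1446 bases, the share as short as or shorter than these 6 was lowest at 18.4% for Spata2l and Hc, and highest at 67.3% for Vps37a.

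**Figure D1:**
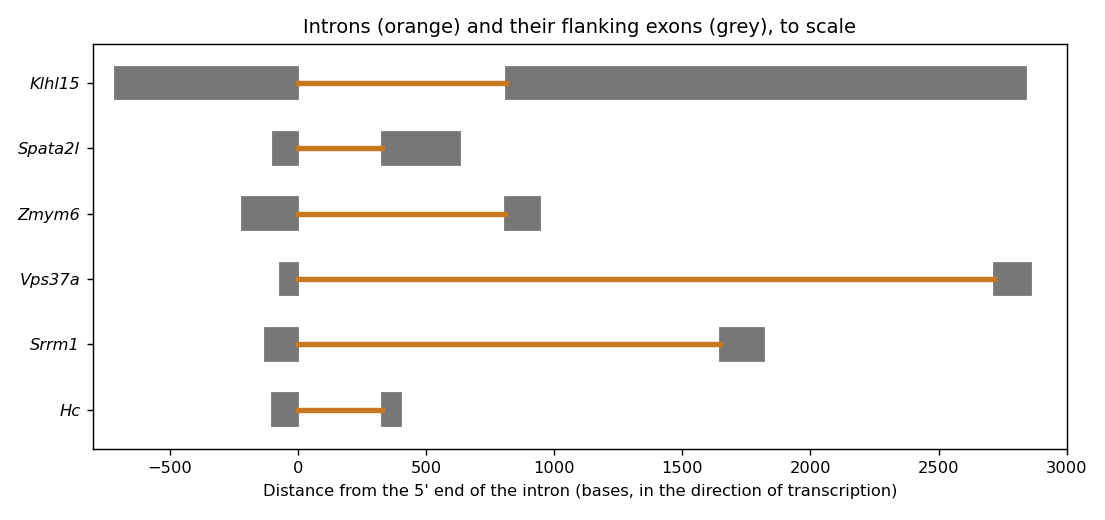
The 6 introns (orange lines) and the exons on either side (grey boxes), drawn to scale, with the horizontal axis as distance in bases from the 5′ end of the intron. The intron of Vps37a is the longest, at 2716 bases, and those of Spata2l and Hc, at 328 and 329 bases, are the shortest.

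The ends of the introns are shown because the splice sites define which reads count as retained. They were read from annotated GENCODE M21 transcripts whose exons cover the window, for Hc from Hc-202, which holds the intron but for its last bases. Each is written 5′ to 3′ in the direction of transcription, with the first or last 2 bases of the intron in capitals. Each window holds 10 bases of exon and 20 bases of intron.
Klhl15 5′ end, chrX:94253117-94253146, plus strand: ctttgagaagGTtggtacatttgaaagcga
Klhl15 3′ end, chrX:94253920-94253949, plus strand: gcatttttctttctttctAGacatcgtaaa
Spata2l 5′ end, chr8:123236130-123236159, minus strand: cgactagcagGTagcaccgccgcccacggg
Spata2l 3′ end, chr8:123235812-123235841, minus strand: ctcatcccggacctgatcAGgatgggcagc
Zmym6 5′ end, chr4:127077591-127077620, plus strand: tacaactgtgGCaagtggtggaaagttctc
Zmym6 3′ end, chr4:127078388-127078417, plus strand: tcctttatattatgttttAGgcgtcatctt
Srrm1 5′ end, chr4:135346296-135346325, minus strand: gtgtttggagGTgagttgtgtaaagtggcc
Srrm1 3′ end, chr4:135344660-135344689, minus strand: cctgtcatgtctttttgcAGaacccagatt
Hc 5′ end, chr2:34991580-34991609, minus strand: tttacgggctGCaagtgttccctttgagat

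Of the 5 introns whose 5′ end could be read, 3 began with GT and 2, those of Zmym6 and Hc, with GC. Among 34305 coding introns of the annotation whose first bases likewise lie in an exon of another transcript, 97.1% began with GT and 2.00% with GC. The 5′ end of the Vps37a intron was not read here. With 5 introns, this is a description of these members.

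The reading frame could be followed into the introns of Klhl15 and Hc. In Klhl15, where 705 coding bases lie before the intron, the frame ran through 39 bases of intron, or 13 codons, before a stop. In Hc, where 1445 of the 1680 codons of Hc-201 lie before the intron, it ran through 24 bases, or 8 codons. The stretches, each with the last 15 bases of the exon and the stop codon in capitals, are as follows.
Klhl15, chrX:94253112-94253168, plus strand: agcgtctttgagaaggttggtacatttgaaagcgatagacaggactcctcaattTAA
Hc, chr2:34991573-34991614, minus strand: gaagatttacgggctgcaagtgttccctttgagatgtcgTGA

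Klhl15-201, which retains the intron, accordingly has 248 codons against 237 in Klhl15-202, which splices it, and both are short beside the 604 codons of Klhl15-204, which uses an exon farther downstream. Reads that join to that downstream exon are not among the spliced counts of this intron. The retained share of Klhl15 therefore sets retained reads against the short spliced form only, and leaves out the long form. The introns of Spata2l and Zmym6 lie before the start codon, so their retention leaves the annotated coding sequence as it is. In Vps37a-201, 323 of 397 codons lie before the intron, whose sequence was not read here.

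Libraries are not named in the splicing table, which gives 7 counts per group in a fixed order, so each library is called by its place in that order. Places 1 and 4 of the control group stood apart by few retained counts, though not at every intron. Summed over the 6 introns, they held 92 and 105 retained counts, against 681 to 1188 at the other 5 control places and 875 to 1410 with erythrodiol. Their spliced counts, 660 and 412, were near the 426 to 734 of the other control places and the 498 to 683 of the erythrodiol group. Most of these counts were of Hc. Without Hc, places 1 and 4 held 30 and 46 retained counts, against 225 to 359 at the other control places. At Klhl15 their retained counts, 2 and 4, lay among the 1 to 6 of the other control places. At Spata2l, place 4 held 17 retained counts, more than the 12 at place 3. At the 10 events of other types, places 1 and 4 of the control group had 42 and 60 junction counts, against 81 to 220 at the other control places and 128 to 200 with erythrodiol. Each difference from these counts is therefore also given without both places. Both were picked after the data were seen, by low retained counts, which enter the retained share. For Vps37a and Hc, the SD and SE without them are smaller for that reason and do not measure precision.

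In tables that do name libraries, control replicates 1 and 4 had the fewest retained introns of their group, 1060 and 1274. Replicate 3 followed with 1391, against up to 1741 in the control group and 1664 to 1729 with erythrodiol. The splicing table does not state whether these are the libraries at places 1 and 4. Replicates 1 and 4 had 55.27% and 56.16% of clean reads mapped uniquely to the genome, against 41.62% to 69.06% over the whole control group and 64.03% to 68% with erythrodiol. The lowest value, 41.62%, was that of control replicate 3, which also had the fewest clean reads, 34856340, and the lowest share mapped at all, 76.66%. The part of library quality in the results was not tested.

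The retained share was higher with erythrodiol in 2 of the 6 introns, Vps37a and Hc, and lower in 4, Klhl15, Spata2l, Zmym6 and Srrm1. The lowest and highest libraries of the groups overlapped in all 6, with and without places 1 and 4 of the control group. Both directions also stayed 2 and 4 without these places.

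**Figure D2:**
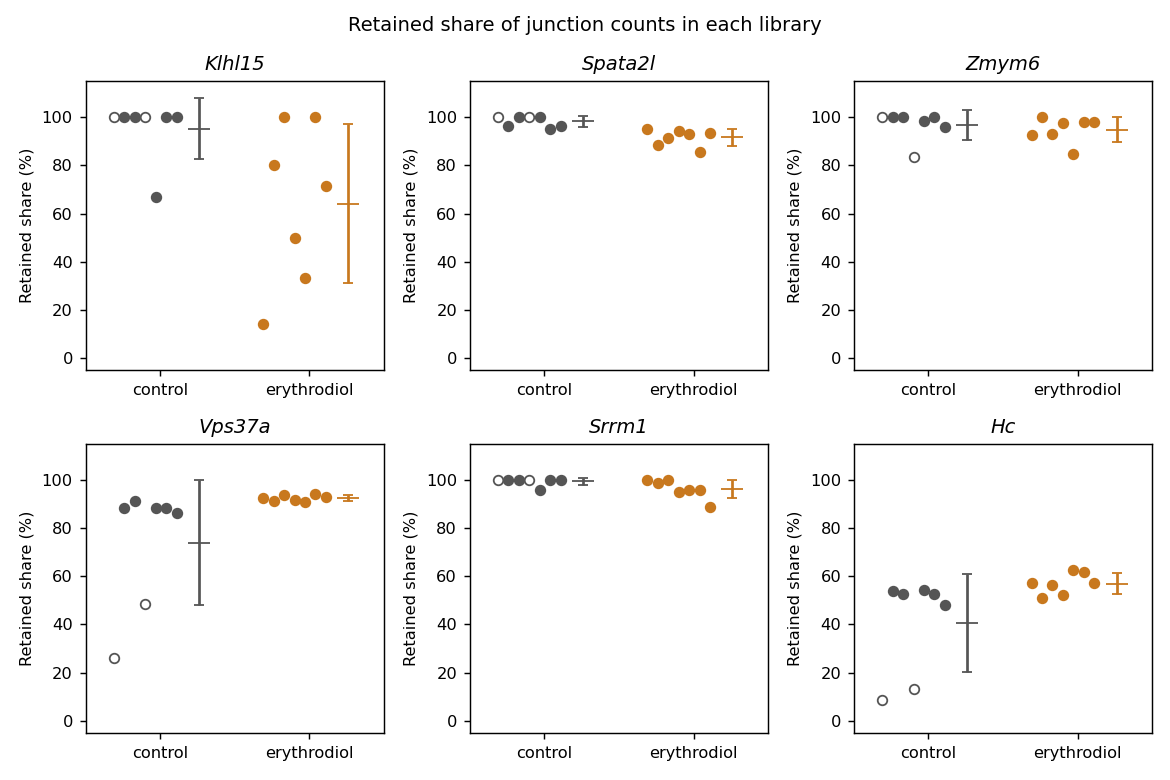
Retained share of junction counts (vertical axis, percent) in each of 7 control (grey) and 7 erythrodiol (orange) libraries, in the order of the table from left to right, with the mean and SD beside them (an SD bar may pass 100%). Open circles are places 1 and 4 of the control group, which lie far below the other control libraries for Vps37a and Hc.

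Hc had the most junction counts of the 6 introns. Retained counts of the control libraries were 59 at the lowest, 464 at the median and 838 at the highest, and those of the erythrodiol libraries 571, 645 and 1011. Spliced counts were 391, 499 and 706 in the control group, and 468, 546 and 664 with erythrodiol. Thus 4 of 7 control libraries lay within the range of spliced counts of the erythrodiol group, whereas 3 erythrodiol libraries had more retained counts than any control library.

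The retained share of Hc was 40.5% ± 20.3 (SD, n = 7) in the control group, from 8.83% through a median of 52.5% to 54.3%. With erythrodiol it was 57.0% ± 4.24 (SD, n = 7), from 51.1% through 57.3% to 62.5%. The difference was 16.5 percentage points (SE 7.84). The low end of the control group was made by place 1, at 8.83% (Wilson 95% interval 6.95 to 11.2), and place 4, at 13.1% (10.3 to 16.5), and such intervals cover counting error only.

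Without these places the control mean was 52.3% ± 2.44 (SD, n = 5) and the difference 4.66 points (SE 1.94). This SE follows from leaving out the lowest libraries and is no measure of precision. Of the erythrodiol libraries, 5 lay above the highest control library and 2 among the control libraries.

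Vps37a showed the same arrangement at lower counts. Its retained counts were 7, 130 and 195 at the lowest, median and highest control library, and 159, 220 and 292 with erythrodiol. Spliced counts were 13, 20 and 26 in the control group, and 14, 18 and 24 with erythrodiol. Spliced counts thus overlapped widely, while 6 of 7 erythrodiol libraries had more retained counts than every control library.

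The retained share of Vps37a was 73.9% ± 25.9 (SD, n = 7) in the control group, from 25.9% through 88.2% to 91.2%. With erythrodiol it was 92.4% ± 1.27 (SD, n = 7), from 90.7% through 92.4% to 94.2%, a difference of 18.5 points (SE 9.79). Places 1 and 4 of the control group again lay lowest, at 25.9% (Wilson 95% interval 13.2 to 44.7) and 48.7% (33.9 to 63.8).

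Without place 1 alone the difference was 10.5 points. Without both places the control mean was 88.5% ± 1.73 (SD, n = 5) and the difference 3.90 points (SE 0.909). Since these places were left out for their few retained counts, this SE is no measure of precision. In that smaller comparison, 6 of 7 erythrodiol libraries lay above the highest control library, and 1 control library lay within the erythrodiol range.

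**Figure D3:**
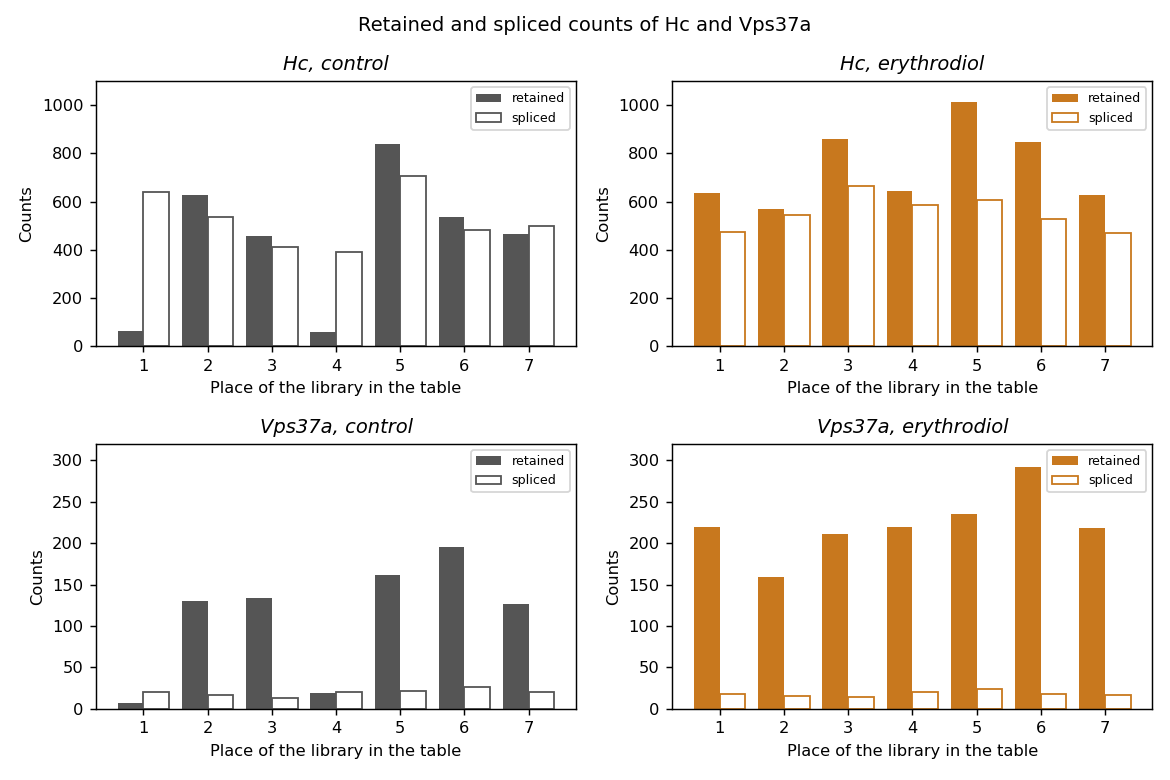
Retained (filled bars) and spliced (open bars) counts of Hc and Vps37a in each library, by its place in the table, with counts on the vertical axis starting at 0. Control places 1 and 4 have few retained counts, 62 and 59 for Hc and 7 and 19 for Vps37a, while their spliced counts lie near those of the other libraries.

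At the other 4 introns the groups differed in a few spliced counts, and for Spata2l, Zmym6 and Srrm1 nearly all counts were retained in both groups. Reads that join other annotated exons, as for the longer intron of Srrm1 or the downstream exon of Klhl15, are not among these counts. Summed over libraries, spliced counts were 2 of 24 junction counts in the control group and 15 of 36 with erythrodiol for Klhl15. They were 4 of 166 and 20 of 260 for Spata2l. They were 4 of 251 and 19 of 345 for Zmym6, and 4 of 354 and 17 of 479 for Srrm1. Since single libraries held at most 8 spliced counts at these introns, each share rests on little.

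Spata2l was the member with the least overlap among these 4. Its retained counts were 8, 25 and 38 at the lowest, median and highest control library, and 18, 34 and 53 with erythrodiol. Its spliced counts were 0, 0 and 2 in the control group, with 4 libraries at 0, and 2, 3 and 4 with erythrodiol. All 7 erythrodiol libraries had at least 2 spliced counts, a number that 1 control library reached.

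The retained share of Spata2l was 98.2% ± 2.26 (SD, n = 7) in the control group, from 95% through 100% to 100%. With erythrodiol it was 91.7% ± 3.43 (SD, n = 7), from 85.7% through 93.0% to 95.2%. The difference was -6.55 points (SE 1.55), and -5.84 points (SE 1.66) without places 1 and 4 of the control group. Of the erythrodiol libraries, 6 lay below every control library. At the control libraries with 0 spliced counts, the depth still allows a spliced share of up to 8.57% at place 5 and up to 37.5% at place 1, by 3 counts of the total.

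Klhl15 had the largest difference in share and the fewest counts. Its retained counts were 1, 3 and 6 in the control group and 1, 4 and 5 with erythrodiol. Its spliced counts were 0, 0 and 2 in the control group, with 6 libraries at 0, and 0, 2 and 6 with erythrodiol, with 2 at 0. Retained counts were alike in both groups, and the spliced counts of 2 erythrodiol libraries exceeded every control library.

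The retained share of Klhl15 was 95.2% ± 12.6 (SD, n = 7) in the control group, from 66.7% through 100% to 100%, and 64.1% ± 32.9 (SD, n = 7) with erythrodiol, from 14.3% through 71.4% to 100%. The difference was -31.1 points (SE 13.3), and -29.2 points (SE 14.1) without places 1 and 4. All 7 control libraries lay within the erythrodiol range. The library with the lowest share, at place 1 of the erythrodiol group, held 1 retained and 6 spliced counts, and its 14.3% has a Wilson 95% interval of 2.57 to 51.3.

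Srrm1 had retained counts of 1, 66 and 93 in the control group and 56, 65 and 81 with erythrodiol. Its spliced counts were 0, 0 and 4 in the control group, all 4 of them in the library at place 5, and 0, 3 and 7 with erythrodiol. The median of the retained counts was thus alike in both groups, while 5 erythrodiol libraries and 1 control library had any spliced count.

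The retained share of Srrm1 was 99.4% ± 1.56 (SD, n = 7) in the control group, from 95.9% through 100% to 100%, and 96.3% ± 3.86 (SD, n = 7) with erythrodiol, from 88.9% through 96.0% to 100%. The difference was -3.12 points (SE 1.57), and -2.89 points (SE 1.68) without places 1 and 4, which held 3 and 1 junction counts. Without place 7 of the erythrodiol group, which held 7 of the 17 spliced counts, it was -1.89 points. Of the erythrodiol libraries, 3 lay below every control library.

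Zmym6 had retained counts of 5, 44 and 57 in the control group and 40, 44 and 64 with erythrodiol. Its spliced counts were 0, 0 and 2 in the control group and 0, 1 and 8 with erythrodiol, and 3 erythrodiol libraries exceeded every control library. Most of its spliced counts with erythrodiol came from places 1 and 5, with 5 and 8 of 19.

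The retained share of Zmym6 was 96.8% ± 6.13 (SD, n = 7) in the control group, from 83.3% through 100% to 100%, and 94.8% ± 5.24 (SD, n = 7) with erythrodiol, from 84.6% through 97.6% to 100%. The difference of -1.96 points (SE 3.05) was smaller than the spread between libraries, and 0 erythrodiol libraries lay below every control library. It was -0.258 points without place 5 of the erythrodiol group, -4.20 points without place 4 of the control group, which held 6 junction counts, and -4.0 points (SE 2.14) without places 1 and 4 of the control group. Without these control places, 3 erythrodiol libraries lay below every remaining control library.

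**Figure D4:**
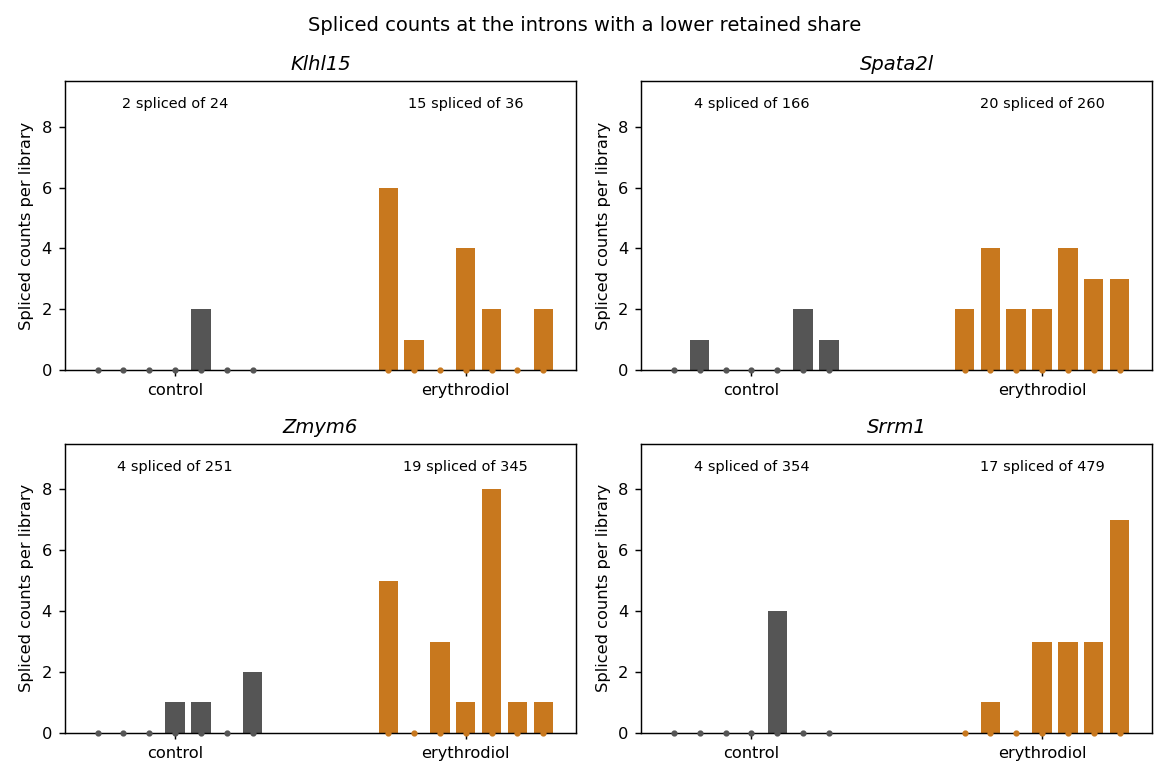
Spliced counts (vertical axis, from 0) in each of 7 control (grey) and 7 erythrodiol (orange) libraries, in the order of the table, at the 4 introns with a lower retained share with erythrodiol. Dots on the axis mark each library, including those at 0, and the numbers above give the sums, such as 2 of 24 and 15 of 36 for Klhl15.

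Retained and spliced counts together were higher on average with erythrodiol at all 6 introns. They were 958 ± 346 (SD, n = 7) per control library and 1295 ± 213 (SD, n = 7) per erythrodiol library for Hc, and 129.9 ± 71.5 and 240.1 ± 40.6 for Vps37a. The difference was 337 counts at Hc and 110.3 counts at Vps37a with all libraries, and 184 and 71.5 counts without places 1 and 4 of the control group. At Zmym6 it was 13.4 counts with all libraries and 2.29 counts without these places, and at Spata2l 13.4 and 8.94 counts. For Srrm1, 50.6 ± 36.5 and 68.4 ± 7.30 counts differed by less than the spread of the control group, and without these places the difference was -1.57 counts. Klhl15 had 3.43 ± 1.99 and 5.14 ± 2.48 counts per library, a difference of 1.71 counts, or 1.54 without these places. With all libraries, the differences at Hc, Zmym6 and Klhl15 were also below the control SD, 346, 20.7 and 1.99 counts. Those at Vps37a and Spata2l exceeded it, 71.5 and 11.9 counts.

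The expression of the 6 genes was not itself used to choose the introns, but it comes from the same libraries and is not independent of the junction counts. Per the methods, new coding transcripts were added to the reference for gene expression, so reads within these introns may add to the gene counts. The gene table holds expected counts summed by the authors over the libraries of a group, with no values per library, so ratios between groups have no replicate check, and their 95% intervals cover counting error only. With each group divided by its own total, the log2 ratio (erythrodiol over control) was 0.24 (0.07 to 0.41) for Klhl15, 0.36 (0.29 to 0.43) for Spata2l and 0.42 (0.31 to 0.54) for Zmym6. It was 0.35 (0.30 to 0.40) for Vps37a, 0.52 (0.47 to 0.56) for Srrm1 and 0.31 (0.29 to 0.32) for Hc. The ratio was above 0 for all 6 genes, both for those with a higher and those with a lower retained share.

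Ratios above 0 were common among all genes. Of 13291 genes that reached 100 counts over both groups, 71.2% also had a log2 ratio above 0, with a median of 0.16 and quartiles at -0.04 and 0.32, against a median of 0.35 over the 6 members. The ratios of Spata2l, Zmym6, Vps37a and Srrm1 lay above the upper quartile, and those of Klhl15 and Hc below it. Among the 7014 of these genes with a transcript length of 2313 to 6167 bases, the range of the members, the median was 0.21, and all 6 members lay above it. None of the 6 passed a 2-fold change, as 0.767% of all those genes did, 0.218% higher and 0.549% lower with erythrodiol. The share of genes with a lower ratio was 62.5% for Klhl15 and 95.5% for Srrm1, the lowest and highest members.

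**Figure D5:**
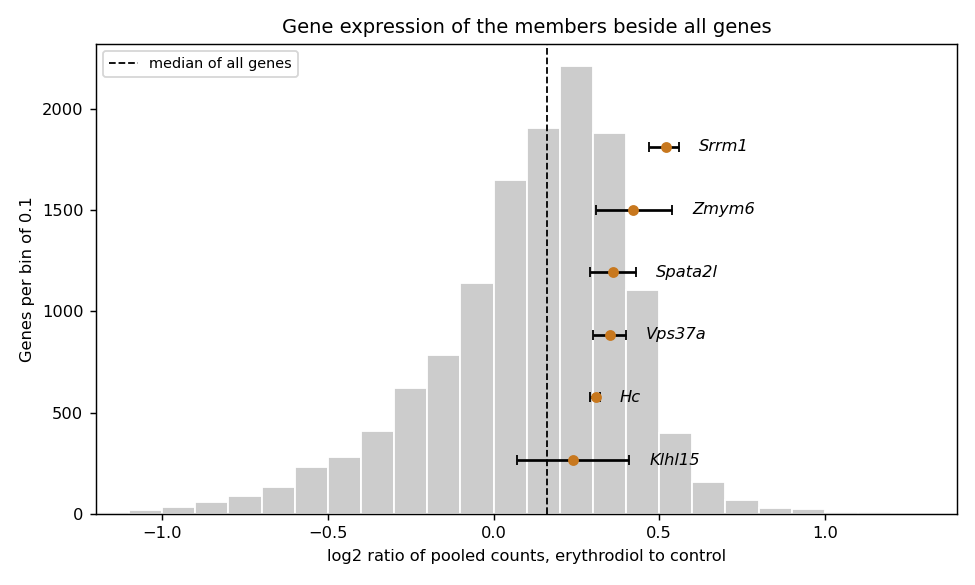
Log2 ratio of pooled expected counts, erythrodiol to control (horizontal axis), for the 6 genes (orange points with 95% counting intervals, at arbitrary heights) over the number of genes in bins of 0.1 (grey bars, vertical axis) for 13291 genes with at least 100 counts. All 6 points lie to the right of the dashed median of all genes, 0.16, and below a log2 ratio of 1.

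As CPM (each count relative to the total of its group) per kilobase of transcript, levels in the control and erythrodiol groups were 181 and 224 for Hc, far above the other members. They were 13.4 and 19.2 for Srrm1, 9.74 and 12.5 for Spata2l, and 7.18 and 9.14 for Vps37a. The lowest levels were those of Zmym6, 1.92 and 2.57, and Klhl15, 0.728 and 0.861. The order of the members was the same in both groups, and Klhl15, with the lowest level, was also the member with the fewest junction counts.

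Genes of RNA decay and of the minor spliceosome were described by lists, to be read beside the 71.2% of all genes with a log2 ratio above 0 and the 0.767% past 2-fold. Of 15 genes of nonsense-mediated decay, which removes mRNAs with early stop codons, 0 passed 2-fold and 13 had a log2 ratio above 0, with a median of 0.32, from -0.80 for Magohb, of the exon junction complex, to 0.50 for Upf1, the central helicase. Of 8 genes of nuclear RNA decay, 0 passed 2-fold and 5 lay above 0, with a median of 0.28, from -0.37 for Rbm7 to 0.47 for Zfc3h1, both of complexes that hand RNA to the exosome. Of 10 genes of the minor spliceosome, which removes a rare class of introns to which the members were not assigned here, 0 passed 2-fold and 8 lay above 0, with a median of 0.09, from -0.91 for Snrnp25 to 0.35 for Scnm1.

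For Hc, the other genes of the complement system give a setting. Of 11 complement genes, most of the terminal and alternative pathways, with Hc itself and with C2 and C4b of the classical and lectin pathways, 0 passed 2-fold and 8 had a log2 ratio above 0, near the 71.2% of all genes, with a median of 0.16, from -0.75 for C8g, a subunit of the membrane attack complex, to 0.35 for C3, the central component. To 2 decimals, this median equals that of all genes.

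Markers of liver cell types were set beside these values and the same shares of all genes, 71.2% above 0 and 0.767% past 2-fold. In bulk tissue, fewer cells of a type and less RNA per cell cannot be told apart. Markers of hepatocytes summed to 94483 CPM in the control group and 93390.4 with erythrodiol, with 0 of 5 past 2-fold and 4 above 0. Most of this sum was Alb, at 80551 and 77519.6 CPM, the only one of these markers with a log2 ratio below 0 (-0.06). Markers of Kupffer cells, the resident macrophages, summed to 325 and 199 CPM, with log2 ratios from -1.07 for Marco to -0.59 for Vsig4 and 1 of 4 past 2-fold. Markers of endothelial cells, 0 of 3 past 2-fold, had a median log2 ratio of 0.14, and those of bile duct, 0 of 4, one of -0.42. Of 4 markers of pancreatic acinar cells, 2 had at least 100 counts and 1, Amy2a5, was lower at -2.48, while Ctrb1, at 8 and 42 counts, had a log2 ratio of 2.37. Of the markers of striated muscle, 0 of 3 had at least 100 counts. In the control and erythrodiol groups, Ttn had 27 and 0 counts, Ckm 3 and 0, and Acta1 3 and 2.99, too few to compare. The part of cell composition in the retained shares was not tested. Apoe itself had 76.5 and 66.5 CPM, and whether these reads come from the disrupted part of the gene was not tested.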

How the data were processed

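Liver poly-A RNA of 7 control and 7 erythrodiol libraries was grouped by the labels. Per the methods, the authors mapped reads with HISAT, reconstructed transcripts with StringTie, found new ones with Cuffcompare of Cufflinks and called splicing with rMATS, whereas gene expression came from Bowtie2 and RSEM. Versions are not given in the sources used here. The authors deposited junction counts of each event for 7 unnamed libraries per group, counts of clean reads, retained introns and transcripts per library, mapping rates in percent, and one expected count per gene and group, which is a sum over libraries and is not normalized. Beside them the authors deposited a p-value and a false discovery rate per event, and a log2 ratio, p-value and q-value per gene, which were not used. Coordinates of new transcripts were used as deposited. A further 16 columns of values per library were not used.

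Retained shares were computed per library and averaged. Single shares carry Wilson 95% intervals, and 0 spliced counts a limit of 3 counts. Starts of events, counted from 0 in the table, were raised by 1. Gene ratios were scaled by total count, over genes with at least 100 counts, with exact (Clopper-Pearson) intervals on expected counts rounded to whole numbers. No test was made, since the introns were selected on the difference described, and gene values have no replicates. Genes named are the 6 members, Apoe, and the members of lowest and highest ratio of each list. Ttn, Ckm, Acta1, Ctrb1, C2 and C4b were named after their values were seen. The members and lists were chosen with earlier results of these data known. Alternatives were summed counts, at least 10 junction counts, each library left out, a median-ratio scaling, a pseudocount of 1 and at least 10 counts. Leaving out places 1 and 4 of the control group and dividing retained counts by 2 were chosen after seeing the data. The computation was tested on simulated data. Scripts ran in Python 3.11.15 with the packages pandas 2.3.3, scipy 1.17.1 for intervals, numpy 2.4.6, and matplotlib 3.10.9 for plots.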

Additional observations from a re-analysis of the deposited data

Results flagged for a closer look

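Of 24 sets of 7 libraries examined for a value far from the rest (shares and total junction counts of 6 introns in 2 groups), 4 held one by Dixon's criterion. Its rate by chance, about 1 in 20, does not hold for shares that end at 100%, since with 6 libraries at 100% any other value meets it. In the control group, the lowest retained share of Klhl15 was 66.7%, at place 5, with the other 6 libraries at 100%. The lowest share of Srrm1 was 95.9%, also at place 5, with the others at 100%, and this library held the most junction counts of its group, 97. The lowest share of Zmym6 was 83.3%, at place 4, from 6 junction counts, with the nearest library at 95.8%. With erythrodiol, the highest total of junction counts for Zmym6 was 69.0, at place 1, with the nearest at 52.0. The low control shares of Hc and Vps37a came in pairs, places 1 and 4, which this criterion for single values does not mark.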

How the results depend on the processing

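The direction of the 6 share differences was kept under all 107 alternatives run for them. The introns were chosen by these very differences, and most alternatives only leave out a library from the same counts. This tally is therefore no support for the differences. Dividing retained counts by 2 took the difference of Spata2l to -11.8 points, that of Srrm1 to -5.80 and that of Zmym6 to -3.76. Leaving out one library at a time gave differences of 11.2 to 18.8 points for Hc, 10.5 to 21.4 for Vps37a, -37.1 to -22.8 for Klhl15, -7.14 to -5.56 for Spata2l, -3.74 to -1.89 for Srrm1 and -4.20 to -0.258 for Zmym6. From summed counts, the difference was 7.58 points for Vps37a and -3.91 for Zmym6. Without control places 1 and 4 together, the differences of Hc and Vps37a were 4.66 and 3.90 points, and without place 1 alone 11.2 and 10.5. The difference in total junction counts per library, 17.9 for Srrm1, was -1.57 without both places. Leaving out one library gave 252 to 435 for Hc, 93.1 to 125 for Vps37a, 1.24 to 2.40 for Klhl15, 10.1 to 16.1 for Spata2l, 9.60 to 25.6 for Srrm1 and 8.45 to 17.1 for Zmym6. Scaling genes by the median ratio lowered log2 ratios by 0.16, to 0.20 for Spata2l, 0.26 for Zmym6, 0.19 for Vps37a, 0.35 for Srrm1, 0.14 for Hc and 0.08 for Klhl15. With it, 1 bile duct marker and 1 gene of the minor spliceosome passed 2-fold, and with at least 10 counts 2 acinar markers did, Amy2a5 lower and Ctrb1 higher. A correction for effective length was not run, as the table gives no such lengths, and a minimum of 10 junction counts leaves no library of Klhl15. No paired analysis was possible because the splicing table does not name its libraries and the results come from no test. Depth limits the 4 introns with few spliced counts most, Klhl15 above all, with 1 to 8 junction counts per library.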
